A study of Bos taurus with 12 samples.

Results

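The 4 casein genes of cattle, CSN1S1, CSN2, CSN1S2 and CSN3, were followed through 12 RNA sequencing libraries of milk fat from 6 Holstein cows. They were chosen by their Ensembl gene IDs, ENSBTAG00000007695 (CSN1S1), ENSBTAG00000002632 (CSN2), ENSBTAG00000005005 (CSN1S2) and ENSBTAG00000039787 (CSN3), and are 4 of the 24616 genes in the count table. Each cow, in early lactation, gave 1 control library and 1 library labelled as postruminal lysine for 63 days, so that there were 6 libraries in each group. Postruminal lysine is the essential amino acid lysine delivered beyond the rumen, past its microbes. The number 63 also stands in the titles as a treatment code beside 0 for control, and the labels do not settle what that code measures. The samples also bear 2 codes whose meaning the labels leave unsaid: B, which is 1 in 3 cows and 2 in the other 3, and P, which runs from 1 to 4 and takes another value in each library of a cow. Milk fat globules enclose some cytoplasm of the mammary secretory cells, and their RNA samples the lactating gland without a biopsy.

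Caseins are the main proteins of cow milk and assemble with calcium phosphate into micelles. CSN1S1 and CSN1S2 encode the alpha-S1 and alpha-S2 caseins and CSN2 encodes beta-casein, phosphoproteins that bind calcium. CSN3 encodes kappa-casein, which sits on the micelle surface, keeps the micelle in suspension and is the protein that chymosin cuts when milk clots. The genes are switched on in the secretory epithelium by prolactin acting through STAT5, together with glucocorticoids and insulin. They lie in 1 cluster on chromosome 6: in the RefSeq table of the assembly ARS-UCD2.0 the order is CSN1S1, CSN2, HSTN, STATH, CSN1S2, PRR27, ODAM and CSN3 among the protein-coding genes. In that table CSN1S2 overlaps the non-coding gene LOC112447094; whether the counting used strand is not given, so reads of these 2 genes may not be told apart.

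Library totals ran from 5.45 to 56.6 M counts (mega-counts; median 20.8 M), with a mean of 17.6 ± 8.80 M in control and 28.4 ± 17.6 M in lysine libraries (SD, n = 6 each). The control library of cow 4394 stood apart: 8.49% of the genes expected there at 20 or more counts had none, against at most 2.50% in the other 11 libraries. The lysine library of cow 4383 stood apart in composition, with 45.8% of its counts in a single gene, the second most abundant of the table and no casein, which took 3.65% to 26.7% of the other 11. Results are therefore also given without these cows where that matters.

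Casein genes took a large part of every library. Their summed share of all counts was 33.9% at the lowest, 39.4% at the median and 49.3% at the highest of the control libraries, and 31.5%, 33.9% and 44.9% in the lysine libraries. All 4 genes ranked among the 7 most abundant genes in all 12 libraries, with CSN1S1 at rank 1 or 2, CSN2 at 2 to 4, CSN1S2 at 4 or 5 and CSN3 at 5 to 7. These are shares of reads and not of molecules, since no transcript lengths were used here, so the order is not an order of transcript number. Each casein count was at least 204777, and the 95% Wilson interval of a share was at most 0.032 percentage points to either side. That interval covers counting error only, since several reads without molecular identifiers can stem from 1 molecule.

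**Figure D1:**
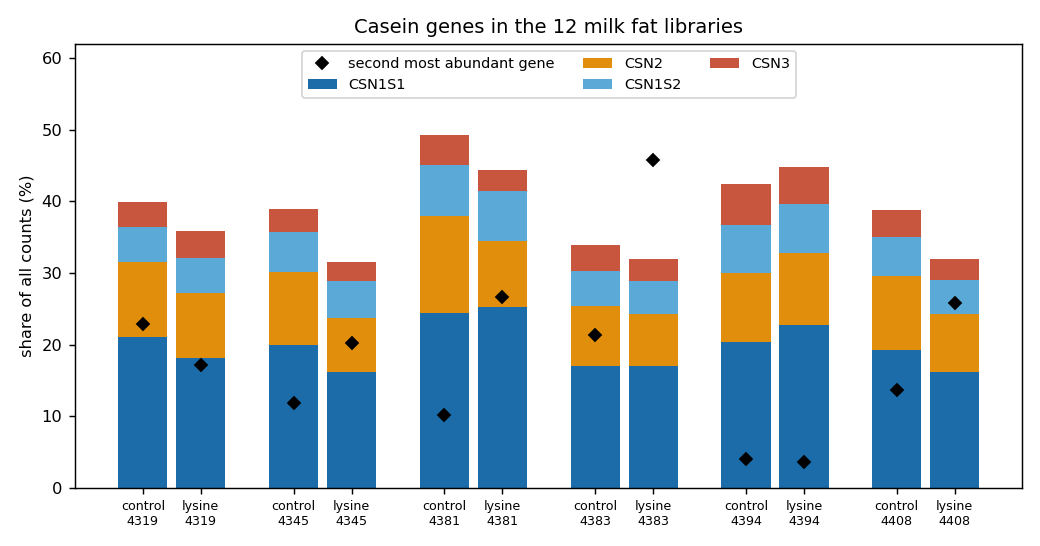
Share of all counts (%) taken by each casein gene (stacked bars) and by the second most abundant gene of the table (black diamonds) in the control and lysine library of each cow. The casein sum runs from 31.5% to 49.3%, and the second most abundant gene runs from 3.65% to 45.8%.

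CSN1S1, the alpha-S1 casein gene, held 17.1%, 20.2% and 24.4% of counts (lowest, median and highest) in control libraries, and 16.1%, 17.6% and 25.3% with lysine. The share was lower with lysine in 4 of 6 cows, and the groups overlapped across most of their range; as shares, 52.6% of all 11323 tested genes were lower in 4 or more of 6 cows. Cow 4381 had the highest share in both groups. Beta-casein, from CSN2, held 8.29%, 10.3% and 13.6% in control and 7.27%, 8.56% and 10.0% in lysine libraries. The CSN2 share was lower with lysine in 5 of 6 cows, with a difference of -4.46 percentage points in cow 4381 and of 0.39 points in cow 4394. On this scale 19.6% of all tested genes were lower in 5 or more of 6 cows.

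The alpha-S2 gene CSN1S2 held 4.87%, 5.51% and 7.08% in control and 4.68%, 5.07% and 7.0% in lysine libraries, with a mean difference of -0.18 ± 0.33 percentage points (SD, 6 cows), -0.075 without cow 4408 and -0.27 without cow 4394. It was lower with lysine in 5 of 6 cows, in cow 4319 by less than 0.001 points. Kappa-casein, from CSN3, held 3.21%, 3.70% and 5.65% in control and 2.55%, 3.05% and 5.14% in lysine libraries, lower in 5 of 6 cows. Cow 4394 had the highest CSN3 share in both groups and cow 4345 the lowest in both. Summed over the 4 genes the difference in share was -3.78 ± 3.63 percentage points (lysine minus control, SD, 6 cows), lower in 5 of 6 cows. With the second most abundant gene left out of the total, the casein sum was 47.2 ± 4.90% in control and 48.7 ± 8.92% in lysine libraries, 1.51 points higher with lysine and higher in 3 of 6 cows. By gene the difference was then 1.85 points for CSN1S1, 0.70 for CSN1S2, -0.88 for CSN2 and -0.16 for CSN3. The sign of the mean difference in summed share thus turned with that one gene in the denominator. On this scale cow 4383 differed by 15.97 points and the other cows by -8.56 to 5.72. The positive mean therefore rested on cow 4383, the cow whose lysine library stood apart in composition. The share of that gene was 14.0 ± 7.08% in control and 23.2 ± 13.8% in lysine libraries.

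The study asked what postruminal lysine does to the mammary transcriptome, and for the caseins the within-cow comparison after TMM normalisation gave no change past the threshold. TMM rescales each library by the bulk of its genes rather than by its total. CSN1S1 stood at 138, 167 and 273 normalised counts per 1000 (lowest, median and highest) in control libraries, and at 115, 175 and 433 with lysine. It was higher with lysine in 3 cows and lower in 3, and the groups overlapped; 0.194% of all tested genes had groups that did not overlap. The log2 fold change was 0.20 ± 0.33 (SE, 6 cows), with a 95% interval from -0.51 to 0.92 (edgeR quasi-likelihood test blocked on cow, unadjusted p = 0.543, adjusted p = 1). CSN1S2 followed the same course, at 39.8, 49.3 and 79.5 per 1000 in control and 37.5, 52.0 and 119.9 in lysine libraries. Its log2 fold change was 0.25 ± 0.29 (95% interval -0.39 to 0.88, edgeR unadjusted p = 0.414, adjusted p = 1).

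CSN2 stood at 67.0, 87.6 and 153 normalised counts per 1000 in control and at 53.8, 81.8 and 164 in lysine libraries. Its log2 fold change was 0.012 ± 0.30 (SE, 95% interval -0.65 to 0.67, edgeR adjusted p = 1). CSN3 stood at 24.9, 37.5 and 47.4 per 1000 in control and at 18.2, 38.1 and 70.3 in lysine libraries. Its log2 fold change was 0.052 ± 0.28 (SE, 95% interval -0.55 to 0.65, edgeR adjusted p = 1). Control and lysine libraries overlapped for both genes. Of the 4 caseins 0 passed the adjusted threshold, as did 0 of all 11323 tested genes (0.0%), and 0 of the 4 had an unadjusted p under 0.05 by edgeR, against 2.53% of all tested genes. DESeq2 and limma voom likewise called 0 caseins, with smallest unadjusted p of 0.290 and 0.326, both for CSN1S2. The median log2 fold change of the 4 caseins was 0.13 and that of all tested genes 0.036.

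With TMM scaling, which gives all genes of a library 1 shared factor, all 4 genes were higher with lysine in the same 3 cows (4381, 4383 and 4394). They were lower in the same 3 (4319, 4345 and 4408). As shares of all counts, all 4 were lower in cows 4345, 4383 and 4408, and the genes parted in the others. There CSN1S1 differed by 0.95 points and CSN2 by -4.46 in cow 4381, CSN1S1 by 2.33 and CSN3 by -0.51 in cow 4394, and CSN1S1 by -2.89 and CSN3 by 0.21 in cow 4319. With TMM scaling 65.5% of all tested genes were higher in 3 or more of 6 cows and 63.9% were lower in 3 or more. Those counts take any 3 or more cows, and the share of genes with the casein split of cows was not computed. Cow 4383 had the greatest difference for every casein: its CSN1S1 level went from 138 per 1000 normalised counts in the control to 382 in the lysine library, and its CSN3 level from 29.6 to 70.3. In the same cow the share of CSN1S1 in all counts was 17.1% in the control and 17.0% in the lysine library. The scaling factor of that lysine library was 0.44, the lowest of the 12, beside 1.24 for its control. Without cow 4383 the log2 fold changes were -0.041 for CSN1S1, -0.23 for CSN2, 0.022 for CSN1S2 and -0.18 for CSN3, and without cow 4394 that of CSN2 was -0.054. A bulk measure of this kind cannot tell a difference in the secretory cells sampled from a difference in casein RNA per cell.

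**Figure D2:**
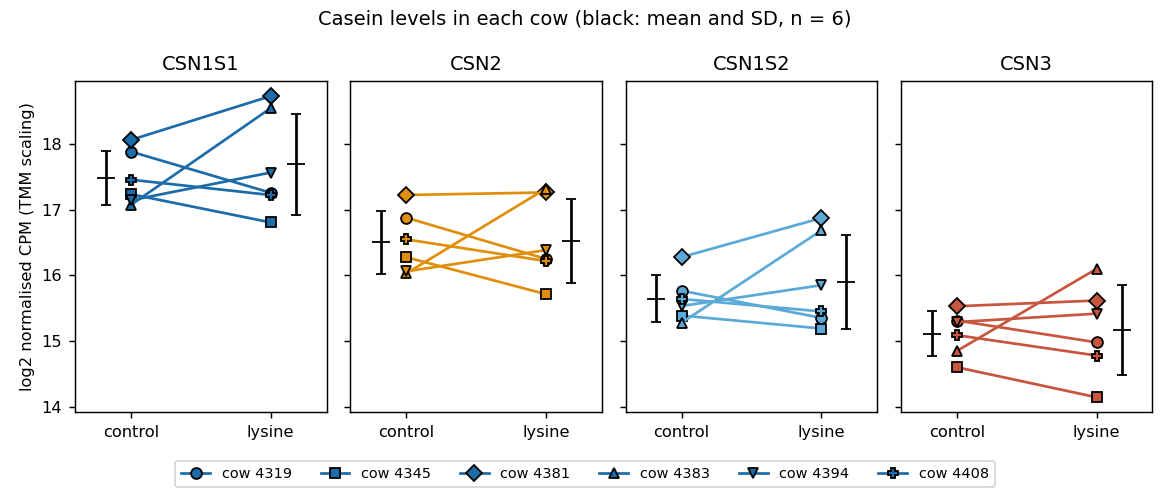
Log2 normalised CPM (TMM scaling) of each casein gene in the control and lysine library of each cow, joined by lines, with the mean and SD of each group in black (n = 6). The lysine points of cows 4381, 4383 and 4394 lie above their control points and those of the others below in every panel, and the 2 groups overlap.

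The sign of these fold changes hung on the scaling, which shifts all genes by about the same amount. Scaled by library totals alone, the log2 fold changes were -0.095 for CSN1S1, -0.28 for CSN2, -0.054 for CSN1S2 and -0.25 for CSN3, and the median of all genes moved from 0.036 to -0.26. By that construction the values relative to the median gene hardly moved: CSN1S1 stood at 0.17 with TMM and 0.17 with library totals, CSN1S2 at 0.21 and 0.21, CSN2 at -0.024 and -0.023, and CSN3 at 0.016 and 0.016. TMM factors computed without the 10 most abundant genes, caseins among them, gave 0.22 for CSN1S1, 0.023 for CSN2, 0.26 for CSN1S2 and 0.063 for CSN3. In fold terms the TMM intervals ran from 0.70 to 1.89 for CSN1S1, 0.64 to 1.59 for CSN2, 0.77 to 1.84 for CSN1S2 and 0.68 to 1.57 for CSN3. Differences inside those bounds could not be told from 0 with these 6 cows.

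**Figure D3:**
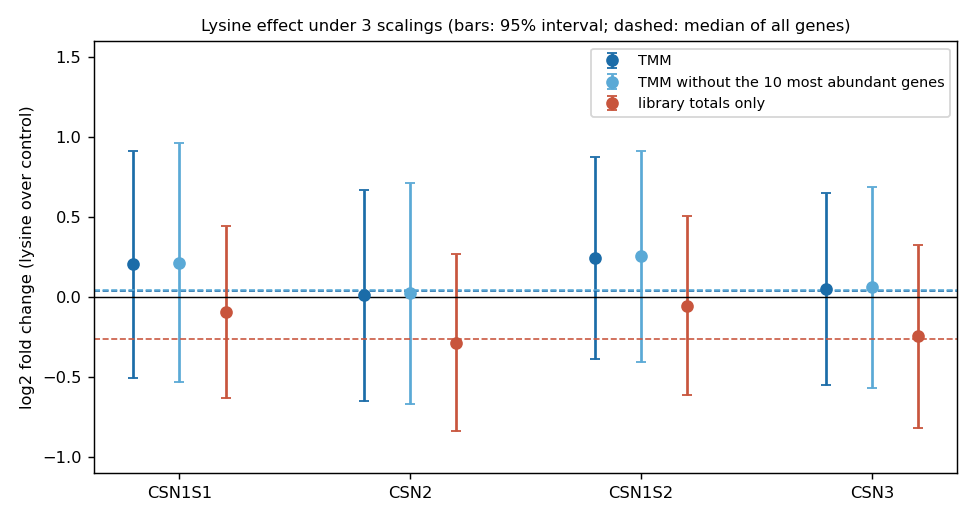
Log2 fold change (lysine over control) of each casein gene with its 95% interval under 3 scalings, with the median of all tested genes under each as a dashed line. All 12 intervals include 0; points for library totals only lie below 0, and their dashed line lies at -0.26 against 0.036 for TMM.

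Ratios between casein genes within a library do not depend on scaling, and gene length cancels when a ratio is compared between libraries. Control libraries held 0.473, 0.507 and 0.560 CSN2 counts per CSN1S1 count (lowest, median and highest), and lysine libraries 0.362, 0.456 and 0.499. Beta-casein RNA was thus lower relative to alpha-S1 RNA with lysine in 6 of 6 cows, with overlap between the groups. The mean difference of the log2 ratio was -0.19 ± 0.091 (SE, 6 cows), which is a change of -12.3% in the ratio. The exact two-sided sign-flip permutation p was 0.0313, the smallest that 6 cows can give, and the adjusted p was 0.125 over the 6 ratios compared, so it did not pass. Cow 4381 went from 0.560 to 0.362, a log2 difference of -0.63, and the mean without that cow was -0.10. In cow 4319 the difference was -0.0012, within its counting error (95% interval -0.0065 to 0.0040). The other 4 cows lay between -0.18 and -0.097.

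CSN1S2 stood at 0.463, 0.537 and 0.694 counts per CSN2 count in control and at 0.537, 0.667 and 0.764 in lysine libraries. It was higher with lysine in 5 of 6 cows, a mean log2 difference of 0.23 ± 0.082 (SE), with an exact sign-flip permutation p of 0.0625 and an adjusted p of 0.125 over 6 ratios. The exception was cow 4394, at -0.0068. CSN3 stood at 0.580, 0.707 and 0.844 counts per CSN1S2 count in control and at 0.419, 0.648 and 0.773 in lysine libraries. This ratio was lower in 5 of 6 cows, by a log2 difference of -0.19 ± 0.079 (SE, exact sign-flip permutation p = 0.0625, adjusted p = 0.125), and cow 4319 was the exception at 0.081.

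The remaining 3 ratios showed smaller or less even differences. CSN3 against CSN1S1 went from 0.161, 0.184 and 0.277 in control to 0.116, 0.184 and 0.226 in lysine libraries, lower in 5 of 6 cows, with a mean log2 difference of -0.15 ± 0.12 (SE, exact sign-flip permutation p = 0.250, adjusted p = 0.375) and of -0.065 without cow 4381 or -0.24 without cow 4319. CSN1S2 against CSN1S1, the pair of alpha-S caseins, differed by 0.040 ± 0.061 (SE, exact sign-flip permutation p = 0.531) and was higher in 3 of 6 cows, with a mean of 0.0022 without cow 4345, 0.0060 without cow 4319 and a median of -0.012. CSN3 against CSN2 differed by 0.039 ± 0.066 (SE, exact sign-flip permutation p = 0.594) and was higher in 4 of 6 cows, with a mean of -0.012 without cow 4319, 0.026 without cow 4345 and 0.086 without cow 4394. Both had an adjusted p of 0.594. As a description of the same pattern, chosen after the values were seen, CSN1S1 and CSN1S2 together had 1.81 ± 0.054 counts for each count of CSN2 and CSN3 in control libraries and 2.08 ± 0.31 in lysine libraries (SD, n = 6 each). With lysine that quotient was higher in 5 of 6 cows and lower in cow 4319 (1.84 in control and 1.80 with lysine).

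**Figure D4:**
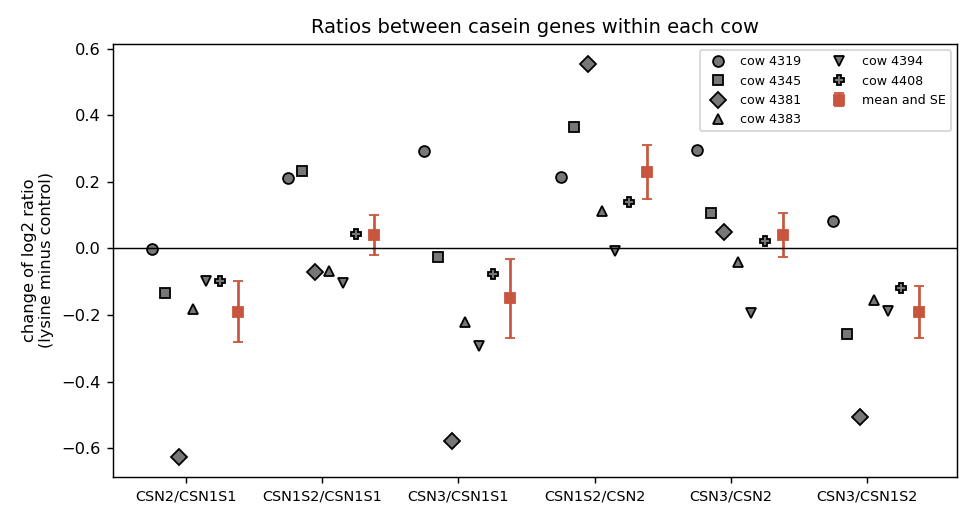
Difference in log2 ratio (lysine minus control) for the 6 pairs of casein genes, with 1 grey symbol per cow and the mean and SE in red. All 6 cows lie at or below 0 for CSN2/CSN1S1, and cow 4381 lies lowest there at -0.63.

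The libraries of a cow also differed in sequencing depth, and these values stand beside the difference in CSN2/CSN1S1. The lysine library was the deeper one in all cows but 4319. Cow 4381 had the greatest gain in depth, from 12.6 to 56.6 M counts, and the greatest difference in ratio (-0.63). Cow 4383 came second in both, at 7.40 and 28.7 M with -0.18, and cow 4345 was the third, at 25.1 and 37.9 M with -0.13. Cows 4408 (16.4 and 23.6 M) and 4394 (13.3 and 17.9 M) stood at -0.097 and -0.098. Cow 4319, whose lysine library held 5.45 M against 31.1 M in its control, stood at -0.0012. Over the 6 cows Pearson's r between the log2 difference in total and that in the ratio was -0.69 (exact permutation p = 0.169) and Spearman's rho was -0.94 (exact permutation p = 0.0167), with adjusted p of 0.203 and 0.100 over the 6 ratios, so neither passed. Without cows 4319 and 4381, the farthest in depth, r was -0.93. CSN3/CSN1S1 gave r = -0.87 (exact permutation p = 0.0444, adjusted p = 0.203), and -0.27 without the same 2 cows. CSN3/CSN1S2 gave r = -0.81 (exact permutation p = 0.0875, adjusted p = 0.203), and 0.25 without them. The remaining ratios gave r = -0.67 (CSN1S2/CSN1S1), -0.63 (CSN3/CSN2) and 0.27 (CSN1S2/CSN2), with exact permutation p of 0.151, 0.169 and 0.611. The relations were looked for after the values were seen, and the part of depth in the result was not tested.

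**Figure D5:**
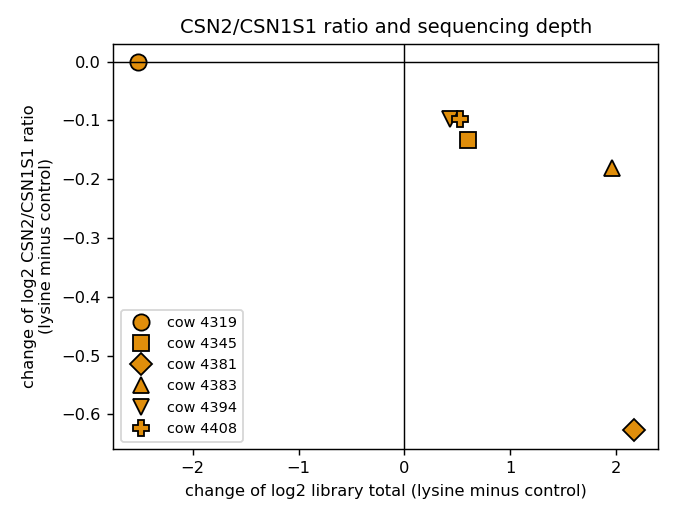
Difference in the log2 CSN2/CSN1S1 ratio against the difference in log2 library total (both lysine minus control), with 1 symbol per cow. Cow 4319, with the shallower lysine library, lies at -0.0012, and cow 4381, with the greatest gain in depth, lies at -0.63.

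Of the casein counts alone, CSN1S1 took 48.1% to 57% over the 12 libraries, CSN2 20.6% to 27.7%, CSN1S2 12.2% to 16.7% and CSN3 6.61% to 13.3%. In relative terms CSN3 varied most, with a coefficient of variation of 18.4%, against 4.38% for CSN1S1, 8.47% for CSN2 and 8.06% for CSN1S2. The largest part of a sum tends to vary least in relative terms by construction. For normalised CPM with TMM scaling the coefficient was instead lowest for CSN3 (36.0%) and highest for CSN1S1 (47.5%). Cow 4394 had the highest CSN3 part in both libraries, 13.3% in control and 11.5% with lysine. Cow 4345 had the lowest part in control (8.26%) and cow 4381 the lowest with lysine (6.61%). CSN2 took 25.7 ± 1.76% of casein counts in control and 23.4 ± 1.80% in lysine libraries (SD, n = 6 each), lower in 6 of 6 cows. Since the parts sum to the whole, this restates the ratios in another form.

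Casein levels were also compared between cows. With TMM scaling cow 4381 had the highest and cow 4345 the lowest mean log2 normalised CPM for all 4 genes, with 1.37 between them for CSN1S1, 1.25 for CSN2, 1.28 for CSN1S2 and 1.20 for CSN3. The SD of the 6 cow means was 0.48 for CSN1S1, 0.43 for CSN2, 0.45 for CSN1S2 and 0.44 for CSN3. A range over 6 cows is wider than an SD by construction, and a mean of 2 libraries varies less than their difference. None of these measures is therefore weighed directly against the next. The SD of the difference between the 2 libraries of a cow was 0.79 for CSN1S1, 0.72 for CSN2, 0.68 for CSN1S2 and 0.63 for CSN3. Neighbours in the order of cows were 0.014 to 0.59 apart, each gap below that SD, though gaps in a sorted list of 6 are small by construction. By the edgeR quasi-likelihood F test of the cow terms 0 of the 4 caseins passed, with adjusted p from 0.546 (CSN1S2) to 0.638 (CSN2), where 161 of 11323 genes (1.42%) did. At an unadjusted p under 0.05 the edgeR count was again 0 of 4, against 15.5% of all tested genes. With DESeq2 that unadjusted count was 4 of 4 (unadjusted p from 0.01655 for CSN1S2 to 0.0406 for CSN2; adjusted p from 0.0982 to 0.185), where 2672 of the 11323 genes had such a p, and 0 of the 4 passed adjustment. With library totals only, the edgeR F test of the cow terms gave the caseins adjusted p from 0.803 (CSN3) to 0.962 (CSN2). With TMM scaling cow accounted for 57.1% of the variance of log2 CSN1S1 level, 59.0% for CSN2, 60.5% for CSN1S2 and 66.1% for CSN3, beside a median of 57% over the 7358 tested genes at 5 CPM or more.

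Whether casein proportions were a trait of the cow was looked at by setting each cow's control library against its lysine library, and no relation passed correction. Over the 6 cows the CSN3/CSN2 log2 ratio in the control library correlated with that in the lysine library at Pearson's r = 0.92 (exact permutation p = 0.0083, adjusted p = 0.0833 over 10 measures) and Spearman's rho = 0.94 (exact permutation p = 0.0167, adjusted p = 0.167). Without cows 4383 and 4394 r was 0.66, so the relation rests in part on those cows. For CSN3/CSN1S2 r was 0.89 (exact permutation p = 0.0264, adjusted p = 0.132) and rho 0.77 (exact permutation p = 0.103, adjusted p = 0.514), and r was 0.95 without cows 4345 and 4394. The mean ratio of CSN3 to CSN2 was highest in cow 4394 (0.548) and lowest in cow 4381 (0.315). CSN2/CSN1S1 gave r = -0.37 (exact permutation p = 0.475) and rho = 0.029 (exact permutation p = 1), with r = 0.68 without cows 4381 and 4394. These 10 relations were chosen after the data were seen.

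No casein passed the tests that set the lysine effect against code B or code P. The lysine effect in cows coded B2 minus that in cows coded B1 (3 each) was a log2 difference of -0.42 ± 0.65 for CSN1S1, -0.61 ± 0.59 for CSN2, -0.36 ± 0.58 for CSN1S2 and -0.57 ± 0.53 for CSN3 (SE, edgeR interaction test, adjusted p from 0.813 to 0.898), where 0.0% of all tested genes passed. Between the 2 cows with the higher and the 4 with the lower P code in the lysine library it was -0.17 ± 0.77, -0.024 ± 0.71, -0.28 ± 0.67 and -0.22 ± 0.64 in the same order (adjusted p from 0.961 to 0.996, 0.0% of all tested genes passed). At an unadjusted p under 0.05, 0 of the 4 caseins stood out in either test, against 6.92% of all tested genes for B and 7.03% for P. Mean CSN1S1 level was 17.6 ± 0.23 log2 CPM in B1 and 17.6 ± 0.72 in B2 cows (SD, n = 3 each), and that of CSN3 was 15.3 ± 0.17 and 15.0 ± 0.60. In the library with the higher P code each casein was higher in 3 of 6 cows.

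As shares of the library total, casein genes were among the steadiest genes of the table. On that log2 scale CSN1S1 had the smallest SD over the 12 libraries (0.22) of the 7358 genes at 5 CPM or more, CSN1S2 ranked 6 from the smallest (0.24), CSN2 10 (0.25) and CSN3 59 (0.33), beside a median gene at 0.72. Among other abundant genes, the one at abundance rank 7 had an SD of 0.29 (rank 31 of 7358), that at 4 had 0.49 (rank 485) and the second most abundant had 1.08 (rank 6488). After TMM scaling the picture changed, with SDs of 0.60 for CSN1S1, 0.54 for CSN2, 0.55 for CSN1S2 and 0.52 for CSN3 beside a median gene at 0.50, and CSN1S1 then had rank 4866. A gene that makes up a large part of the total is partly measured against itself on the first scale.

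The caseins tracked one another closely across libraries with TMM scaling, and less closely with library totals. With TMM scaling the 6 pairs had Pearson's r from 0.84 to 0.98 over the 12 libraries (median 0.89), given as a description since the 12 share cows, depth and scaling factors. CSN1S1 and CSN1S2 were each other's closest gene among 7357, at r = 0.98, and CSN1S1 was the closest gene to CSN2 (r = 0.96). CSN3 stood farther off: in likeness to it CSN1S1 had rank 26, CSN1S2 28 and CSN2 38. Under scaling by library totals alone the median r of the 6 pairs was 0.56 (0.43 to 0.83), and CSN1S2 was still the closest gene to CSN1S1, and CSN1S1 had rank 2 in likeness to CSN1S2. On that scale CSN1S1 had rank 2184 in likeness to CSN3. Over the 6 within-cow differences the median r of the pairs was 0.96 with TMM (0.94 to 0.99). With library totals it was 0.41 (-0.11 to 0.71), lowest for CSN1S1 with CSN3. In likeness to CSN1S1 over these differences with TMM, CSN1S2 had rank 5, CSN2 40 and CSN3 86 of 7357. Genes that are no casein thus stood ahead of CSN2 and CSN3.

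Other than the caseins themselves, the 2 genes most like the mean casein profile over the 12 libraries carried IDs that the sources used here pair with no name. ENSBTAG00000005859, which ranked 7 in abundance in the table at 2.68% of counts, had r = 0.95, and ENSBTAG00000014633, at 0.0034% of counts, had r = 0.94. The first measured 27.3 ± 7.26 normalised counts per 1000 in control and 29.0 ± 14.6 in lysine libraries (SD, n = 6 each), and its log2 fold change was -0.030 ± 0.28 (SE, edgeR adjusted p = 1). By library totals they had ranks 4 and 105 of 7354 genes. The second most abundant gene of the table had r = 0.51 with TMM and -0.77 with library totals.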

How the data were processed

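RNA of the fat layer of milk from 6 cows was sequenced in 12 libraries. The authors deposited whole-number read counts per Ensembl gene ID, not normalized, 1 column per library, as the file header and values show. The aligner, counter, strand setting, genome build and annotation were not given in the sources used here. Groups and cow numbers come from the sample titles. The casein IDs were paired with symbols by the definition of the gene set. The RefSeq table of 37063 genes pairs 0 of the 24616 IDs with a name, so lists of lactogenic, secretory, amino acid and cell marker genes were not analysed here, and no coordinates are given. The members, lists and tests were chosen with earlier results of these data known.

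The 11323 genes kept by filterByExpr (minimum count 10, at least 6 libraries) were fitted with edgeR 4.0.16 (R 4.3.3) by robust quasi-likelihood with TMM scaling and cow as a block, because the 2 libraries of a cow come from 1 animal. Tests were two-sided, with Benjamini-Hochberg adjustment over all genes tested and a threshold of 0.05; the scripts were tested on simulated data. A standard error is the log2 fold change divided by the root of its F statistic. For ratios the test was an exact sign-flip permutation (two-sided) over 6 cows, adjusted over 6 ratios. Counting errors of ratios are Poisson. What a library was expected to hold of a gene is the mean level in the other 11 libraries times its scaled total. Log2 CPM used a prior count of 2. Beyond the 4 members, the 2 genes at 5 CPM or more with the highest r to the mean casein profile are named. Alternatives were DESeq2 1.42.0, limma 3.58.1 voom, a fit that was not robust, RLE factors, library totals only, TMM without the 10 most abundant genes, no low-count filter, no replicate block and each cow left out; the closing section gives their effect. Totals ran from 5.45 to 56.6 M counts per library, and at these depths counting error of the caseins was small.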

Additional observations from a re-analysis of the deposited data

Results flagged for a closer look

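The lysine library of cow 4381 stood apart from the other 5 lysine libraries in its casein makeup. CSN1S1 took 56.98% of its casein counts, against 52.9% in the next library, and CSN1S1 and CSN1S2 together had 2.67 counts for each count of CSN2 and CSN3, against 2.11 in the next. Both gaps were past Dixon's 95% limit for 6 samples, which chance passes in about 1 group in 20; 44 groups of 6 were examined and the 2 values describe the same library. That library was also the deepest, at 56.6 M counts.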

How the results depend on the processing

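No casein passed the lysine, cow, B code or P order test under any alternative that was run, and no ratio passed adjustment in any. The number of genes called for lysine was 0 in all of them (0 with no replicate block) except 1 without a low-count filter. Without the block the log2 fold changes were 0.34 (CSN1S1), 0.073 (CSN2), 0.37 (CSN1S2) and 0.16 (CSN3), and blocking changed no call. Library totals only turned them to -0.095, -0.28, -0.054 and -0.25; leaving out a cow moved them over -0.041 to 0.38, -0.23 to 0.14, 0.022 to 0.38 and -0.18 to 0.17.

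The cow effect called 1518 genes with DESeq2, with 0 of the 4 caseins among them. It called 396 with library totals only, 829 unfiltered, and between 9 and 429 when a cow was omitted. At an unadjusted p under 0.05 DESeq2 had all 4 caseins among 2672 of the 11323 genes, and edgeR had 0 caseins among 1756. The B code test called 39 with DESeq2, 30 unfiltered, and between 0 and 1 when a cow was omitted; the P order test called 114, 48 and 0 to 847, and 3 with library totals only. Leaving out a cow moved the B code difference over -0.95 to 0.10 (CSN1S1) and -0.79 to 0.12 (CSN1S2), and the P order difference over -0.50 to 0.23 (CSN1S1), -0.35 to 0.38 (CSN2), -0.54 to 0.071 (CSN1S2) and -0.44 to 0.14 (CSN3). Library totals only gave P order differences of 0.070 (CSN1S1), 0.21 (CSN2) and 0.019 (CSN3). The cause was not tested. Where cow 4394 or 4408 is left out, the P order test has 1 cow on a side, taken to be as variable as the rest.

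The median difference of CSN1S2/CSN1S1 was -0.012. Leaving out a cow moved the mean log2 differences over -0.23 to -0.10 (CSN2/CSN1S1), 0.0022 to 0.070 (CSN1S2/CSN1S1), -0.24 to -0.065 (CSN3/CSN1S1), 0.17 to 0.28 (CSN1S2/CSN2), -0.012 to 0.086 (CSN3/CSN2) and -0.25 to -0.13 (CSN3/CSN1S2); the smallest exact p that 5 cows allow is 0.0625. With no replicate block the exact permutation p of CSN2/CSN1S1 was 0.0260 (adjusted p = 0.156; 0.125 to 0.250 over its alternatives). The casein share difference was -5.02 to -3.05 points with a cow left out. With the second most abundant gene out of the total it was 1.51 in sum, 1.85 for CSN1S1, 0.70 for CSN1S2, -0.88 for CSN2 and -0.16 for CSN3. That sum rested on cow 4383, at 15.97 points, where the other cows lay between -8.56 and 5.72. The median r of the pairs was 0.56 with library totals only and 0.84 to 0.94 with a cow left out.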
